A study of Mus musculus with 24 samples.

Results

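The genes described here encode 10 acute-phase proteins known from fat cells: the serum amyloid A proteins Saa1, Saa2 and Saa3, haptoglobin (Hp), lipocalin 2 (Lcn2), complement C3 (C3), inter-alpha-trypsin inhibitor heavy chain 4 (Itih4), orosomucoid 1 (Orm1), ceruloplasmin (Cp) and the serpin Serpina3n. They were picked by name from 24346 features, genes and unnamed transcripts, in RNA-seq count files of mouse 3T3-L1 cells. These are a fibroblast-like preadipocyte line that turns into fat cells under hormones. The choice was made with earlier results of the same libraries known, so the members' levels, differences and calls below describe these libraries and are not tests. The data comprised 12 RNA-seq libraries, 3 biological replicates in each of 4 groups. Control cells and cells whose genotype label reads LSD1 overexpression were each taken at day 0, as confluent undifferentiated cells, and at day 7. Fat cell formation was induced in both with a mixture in 10% serum that held 500 µM isobutylmethylxanthine, 10 µM rosiglitazone, 1 µM dexamethasone and 10 µg/ml insulin. The medium held insulin without the other agents from day 3, and cells were at passages 13 to 18. In addition, 6 peak lists from chromatin immunoprecipitation (ChIP-seq), 1 sample each, covered LSD1 in each group and the transcription factor Nrf1 at each day. The title and the genotype label of the day 7 Nrf1 sample name different genotypes, so that list is described by day and factor alone. The labels do not say how LSD1 was overexpressed, nor whether 1 or several lines were made. What goes with the label and what goes with the line cannot be told apart.

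Acute-phase proteins are secreted proteins whose blood level moves with inflammation. The liver is their best known source, where interleukin 6, interleukin 1 and glucocorticoids act through STAT3, NF-kB and C/EBP factors on their genes. Fat cells make many of them too, among them Saa3, haptoglobin, lipocalin 2 and orosomucoid, and the same C/EBP factors drive fat cell formation. LSD1, encoded by Kdm1a, is a histone demethylase that works in repressor complexes.

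Levels are given in CPM, counts scaled to a common library size. At day 0, Kdm1a measured 83.13 ± 3.76 CPM (SD, n = 3) under the control label and 97.54 ± 7.47 CPM under the LSD1 label, and at day 7 it measured 69.39 ± 4.50 and 54.72 ± 0.606 CPM. The day 0 difference did not pass the test over all genes and at day 7 the level was lower under the label (log2 difference −0.34, SE 0.097, Benjamini-Hochberg adjusted p = 0.00751 by the quasi-likelihood test of edgeR, used for every call below). Without labelled day 0 replicate 1, the day 0 level was called higher under the label (0.29, SE 0.0915, adjusted p = 0.0132, edgeR). The samples are therefore called the labelled libraries. A construct without the RefSeq transcript would not be counted. Library totals ranged from 27512273 to 37565527 counts over all transcripts, where transcripts of 1 gene share reads. With 1 transcript per gene, the set behind the CPM and the tests, they ranged from 19953122 to 26266765 counts. Replicates correlated at 0.988 to 0.993 in log2 CPM, except labelled day 0 replicate 1, which reached 0.955 with another replicate of its group. Markers of fat cells summed to 645.8 to 823.4 CPM in control libraries at day 0 and to 10360 to 12090 CPM at day 7, against 486.2 to 616.8 and 29380 to 35950 CPM in labelled libraries. Preadipocyte and fibroblast markers summed to 40910 to 43420 and 10800 to 11170 CPM in control, and to 21480 to 22410 and 1792 to 1951 CPM in labelled libraries. Pdgfra went against these sums, with means of 670.6 and 1106 CPM in control and 952.3 CPM at labelled day 0. Tnc was also higher under the label at day 0, at 300.9 against 184.4 CPM. The means of the other markers on that list moved as the sums did. In these bulk samples, fewer cells of a type and less RNA per cell cannot be told apart. Markers of other cell types were low but moved with the groups. The 7 neutrophil markers summed to 0.0393 to 0.322 CPM in control at day 0 and to 5.43 to 6.72 CPM at day 7, mostly Camp, against 0.402 to 1.25 and 0.607 to 1.39 CPM in labelled libraries, while S100a9, Mpo and Csf3r had 0 counts in every library. The 10 hepatocyte markers summed to 4.60 to 6.29 CPM in labelled libraries at day 7, mostly Cyp2e1, and to 0.358 to 1.25 CPM in the other groups, with Ttr, Tat and Fgb at 0 counts in every library. The 9 macrophage markers summed to 5.03 to 8.33 CPM in control at day 0, 2.05 to 2.46 CPM in control at day 7, 4.19 to 9.05 CPM in labelled libraries at day 0 and 0.258 to 0.662 CPM at day 7, with Adgre1 and Tyrobp at 0 counts throughout. The 6 muscle markers, mostly Des, summed to 4.36 to 6.11 CPM in control at day 0 and 12.7 to 15.6 CPM at day 7. In labelled libraries they summed to 6.86 to 17.8 and 33.5 to 44.1 CPM, with Myod1 and Myog at 0 counts throughout. The 6 endothelium markers summed to 0.874 to 4.09 CPM over all groups. The part of these markers in the results was not tested.

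As a group the acute-phase genes took a larger share of the scaled counts at day 7 than at day 0 in control cells, most of it from C3, and the step was smaller under the label. Together the 10 genes took 0.0719 ± 0.00433% of the scaled library size (summed CPM, SD, n = 3) in control at day 0 and 1.024 ± 0.0545% at day 7. In labelled libraries they took 0.263 ± 0.0302% at day 0 and 0.380 ± 0.0387% at day 7. The labelled share was thus above control at day 0 and below it at day 7. These are shares of the TMM-scaled library size and not of plain counts. At day 7 the scaling factors were 1.0576 to 1.0803 in control and 0.89073 to 0.91144 in labelled libraries. C3 made up 87.6% of the members' counts in control at day 0, 72.2% in control at day 7, 87.3% in labelled libraries at day 0 and 36.3% at day 7.

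**Figure D1:**
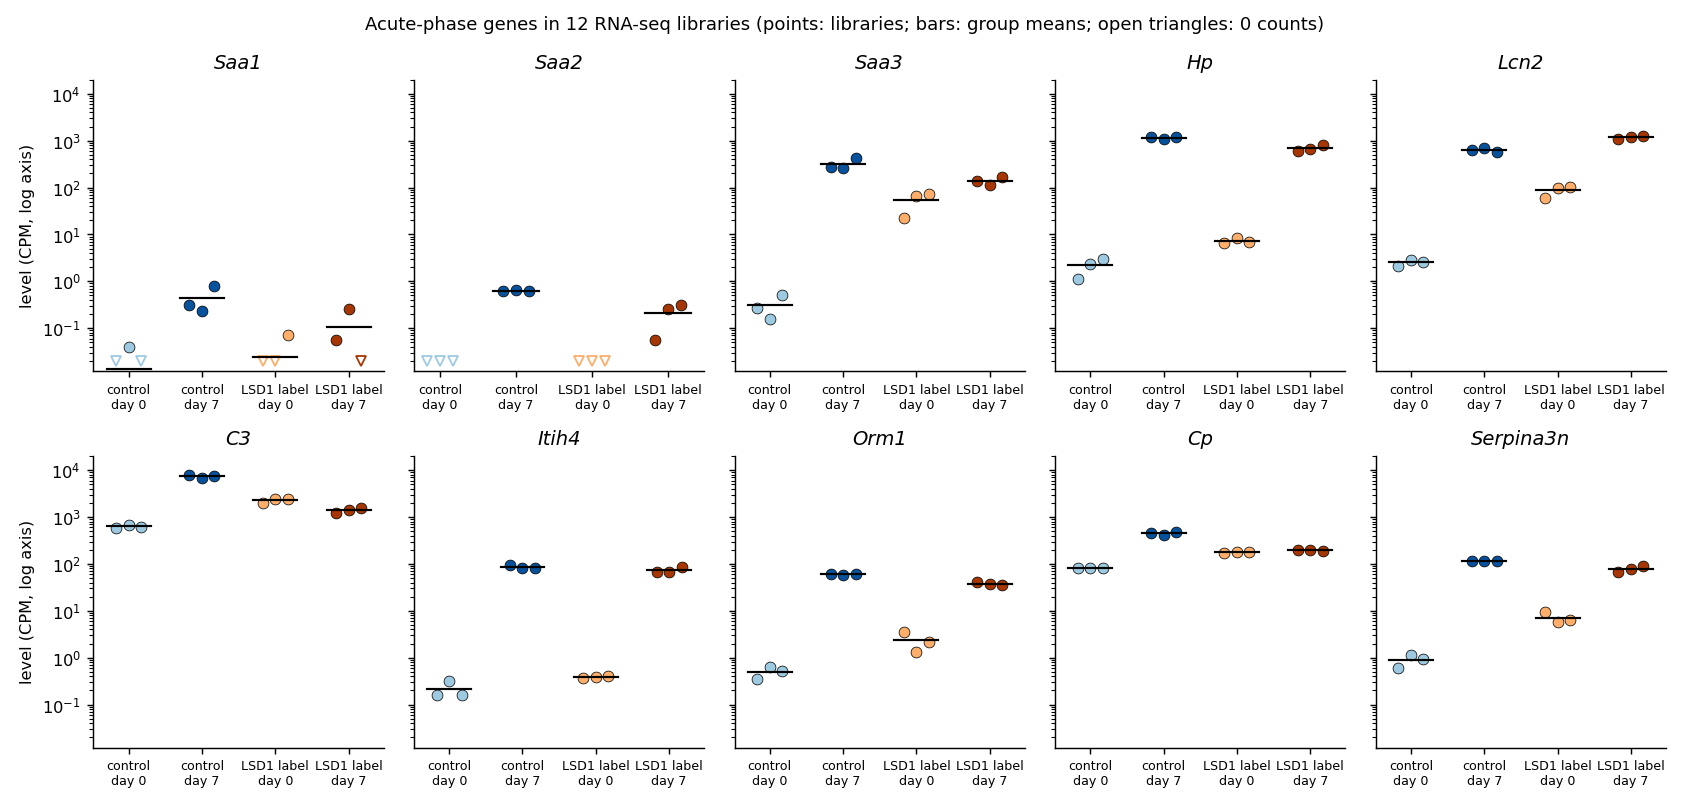
Level of each acute-phase gene in each of the 12 RNA-seq libraries, in CPM on a log axis, by group. Points are libraries, bars are group means and open triangles mark libraries with 0 counts; Hp and Itih4 are low in both day 0 groups, while Lcn2, Saa3 and C3 are already raised in the labelled libraries at day 0.

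The 3 serum amyloid A genes sit close together on chromosome 7, and Saa3 was far above its neighbours: at control day 7 it reached 610.8 CPM per kb of transcript, against 1.04 for Saa2 and 0.730 for Saa1. Their proteins are small apolipoproteins carried by high-density lipoprotein, and in mice Saa1 and Saa2 are the main liver forms while Saa3 is the form of fat cells and macrophages. Saa3 (chr7:46711998-46715676, minus strand, mouse GRCm38.p6, the mm10 build) had 0.275, 0.161 and 0.516 CPM in the control day 0 libraries, from 24 counts in all, and 277.0, 262.2 and 433.8 CPM at control day 7. In the labelled libraries it had 22.9, 66.5 and 71.4 CPM at day 0 and 138.9, 115.9 and 168.9 CPM at day 7. The 4 groups did not overlap, and their order was control day 0, labelled day 0, labelled day 7, control day 7. The log2 difference between the days was 9.97 (SE 0.563) in control and 1.40 (SE 0.347) in labelled libraries. The label difference was 7.37 (SE 0.542) at day 0 and −1.20 (SE 0.344) at day 7. The library that stood apart, labelled day 0 replicate 1, held 0.333 times the mean Saa3 level of the other replicates. Without it, the label difference at day 0 was 7.73 (SE 0.364) and the day difference under the label 1.04 (SE 0.223).

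Saa1 and Saa2 were close to the limit of detection. Saa2 had 0 counts in all 6 day 0 libraries, 14, 14 and 15 counts at control day 7 and 1, 5 and 6 counts at labelled day 7. With a floor of 3 counts over a group, it was at least 17.7-fold higher at day 7 in control and at least 4.73-fold higher in labelled libraries. At day 7 its labelled to control ratio was 0.282 (exact 95% interval 0.135 to 0.544, counting error only). Saa1 had 31 counts at control day 7 and 1 at control day 0, a ratio of 38.2 (exact 95% interval 6.37 to 1558), and 6 and 2 counts in labelled libraries. Its groups overlapped under the label. Both counts are uncertain, because reads of closely related copies can be split between them, and the identity of their transcripts was not measured. Saa1 did not pass the filter on low counts, and Saa2 passed it only through control day 7.

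The sequences before the start sites of the 3 genes are shown because the copies that differ so much in level differ in how much of them they share. Each line gives the 250 bases before the RefSeq start site, 5′ to 3′ on the gene's strand, and capitals mark matches to the C/EBP motif TTNNGCAA on either strand. Saa1 covers chr7:46742981-46743230 (minus strand), Saa2 chr7:46751583-46751832 (plus strand) and Saa3 chr7:46715677-46715926 (minus strand), from RefSeq on GRCm38.p6.
Saa1: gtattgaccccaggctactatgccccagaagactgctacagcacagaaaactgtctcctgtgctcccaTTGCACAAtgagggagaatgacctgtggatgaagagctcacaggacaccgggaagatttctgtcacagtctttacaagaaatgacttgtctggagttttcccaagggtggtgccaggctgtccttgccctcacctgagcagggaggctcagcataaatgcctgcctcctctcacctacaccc
Saa2: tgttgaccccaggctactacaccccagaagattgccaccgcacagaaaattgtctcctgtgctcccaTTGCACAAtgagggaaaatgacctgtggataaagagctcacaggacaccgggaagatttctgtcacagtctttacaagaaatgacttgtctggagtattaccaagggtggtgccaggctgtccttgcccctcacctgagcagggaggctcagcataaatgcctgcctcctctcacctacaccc
Saa3: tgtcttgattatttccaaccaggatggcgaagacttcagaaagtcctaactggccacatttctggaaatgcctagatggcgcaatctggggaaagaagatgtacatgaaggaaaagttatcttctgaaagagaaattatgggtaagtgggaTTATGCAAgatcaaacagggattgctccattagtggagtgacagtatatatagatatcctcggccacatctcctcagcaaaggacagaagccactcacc
Saa1 and Saa2 were 94.8% identical over these bases, while Saa3 was 48.2% identical to Saa1 and 48.0% to Saa2. All 3 windows hold 1 C/EBP match, at bases −182 to −175 in Saa1, −183 to −176 in Saa2 and −99 to −92 in Saa3, counted from −1 next to the start site. The match in Saa1 and Saa2 lies on the opposite strand and has other letters than that in Saa3. The motif occurs in 9.56% of the 32851 windows of that length in the table. A match is a description of letters and not a site of binding.

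Haptoglobin and Itih4 were low at day 0 and high at day 7 under both labels. Haptoglobin binds free hemoglobin in plasma, and Itih4 is a plasma protein of the inter-alpha-trypsin inhibitor family that is cut by kallikrein. Hp (chr8:109575128-109579172, minus strand) had 1.14, 2.38 and 3.06 CPM at control day 0 and 1213, 1062 and 1221 CPM at control day 7. In labelled libraries it had 6.67, 8.30 and 6.75 CPM at day 0 and 609.3, 658.8 and 825.0 CPM at day 7. All 4 groups were apart, and even the highest day 0 library, at 8.30 CPM, was far below the lowest day 7 library, at 609.3 CPM. The day difference was 9.05 (SE 0.303) in control and 6.59 (SE 0.267) under the label, and the label difference was 1.73 (SE 0.256) at day 0 and −0.74 (SE 0.207) at day 7.

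Itih4 (chr14:30886476-30901986, plus strand) showed the smallest label effect of the 8 members with enough counts. Its levels were 0.157, 0.322 and 0.159 CPM at control day 0, from 16 counts, and 0.368, 0.394 and 0.402 CPM at labelled day 0, from 31 counts. At day 7 they were 96.6, 80.0 and 83.8 CPM in control and 66.1, 67.7 and 87.6 CPM in labelled libraries, and these groups overlapped. The day difference was 8.64 (SE 0.233) and 7.55 (SE 0.215). The label differences of 0.86 (SE 0.350) at day 0 and −0.23 (SE 0.141) at day 7 did not pass the test. Itih4 passed the filter on low counts only through the day 7 groups.

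Orm1 and Serpina3n ran in parallel. Orosomucoid 1 is a lipid- and drug-binding plasma glycoprotein, and Serpina3n is a mouse inhibitor of serine proteases. Orm1 (chr4:63344556-63348163, plus strand) had 0.353, 0.644 and 0.516 CPM at control day 0, 62.0, 57.9 and 61.9 CPM at control day 7, 3.52, 1.32 and 2.15 CPM at labelled day 0, and 42.0, 36.8 and 36.0 CPM at labelled day 7. Serpina3n (chr12:104406708-104414329, plus strand) had 0.589, 1.13 and 0.952 CPM, 117.7, 114.8 and 112.8 CPM, 9.33, 5.90 and 6.28 CPM, and 67.7, 78.9 and 88.3 CPM in the same order of groups. In both genes the order was control day 0, labelled day 0, labelled day 7, control day 7, without overlap. The day difference of Orm1 was 6.90 (SE 0.318) in control and 4.04 (SE 0.263) under the label, and that of Serpina3n 7.01 (SE 0.247) and 3.45 (SE 0.197). The label difference of Orm1 was 2.19 (SE 0.337) at day 0 and −0.66 (SE 0.221) at day 7, and that of Serpina3n 3.00 (SE 0.238) and −0.56 (SE 0.175). In labelled day 0 replicate 1 both stood above the other replicates, at 2.02 times their mean for Orm1 and 1.53 times for Serpina3n, whereas Saa3, Lcn2 and C3 stood below. Without that library the day 0 label difference was 1.77 (SE 0.278) for Orm1 and 2.77 (SE 0.198) for Serpina3n. The Orm1 gene overlaps Gm52743 on the other strand, and whether the counting used strand is not stated. Its relatives Orm2 and Orm3 lie close by and had means of 12.97 and 44.8 CPM at control day 7. How far reads are split between the 3 genes was not measured. Serpina3n has several related genes next to it, and its transcript was 65.0% to 75.3% identical to those of 6 of them.

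Lcn2 was the 1 member that stood above control at both days in the labelled libraries. Lipocalin 2 binds bacterial siderophores and so keeps iron from bacteria, and it is also secreted by fat cells. Lcn2 (chr2:32384637-32387739, minus strand) had 2.16, 2.86 and 2.58 CPM at control day 0, 645.9, 712.2 and 573.2 CPM at control day 7, 60.2, 96.6 and 103.4 CPM at labelled day 0, and 1091, 1220 and 1255 CPM at labelled day 7. All 4 groups were apart, and the labelled day 7 group was the highest. The day difference was 7.99 (SE 0.244) in control and 3.78 (SE 0.194) under the label. The label difference was 5.10 (SE 0.220) at day 0 and 0.88 (SE 0.175) at day 7. Replicate 1 of the labelled day 0 group held 0.602 times the mean of the others, and without it the day 0 label difference was 5.30 (SE 0.133).

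C3, the central protein of the complement cascade, was the most abundant member per length in 3 of the 4 groups, and its level went up between the days in control and down under the label. C3 (chr17:57203967-57228136, minus strand, containing the microRNA gene Mir6978) had 598.9, 678.7 and 613.3 CPM at control day 0 and 7804, 6916 and 7469 CPM at control day 7. At that point it had the highest CPM of all 24346 features, and by CPM per kb of transcript it ranked 13 of 22198. In labelled libraries it had 2005, 2417 and 2465 CPM at day 0 and 1195, 1415 and 1535 CPM at day 7. Every labelled library at day 7 was thus below every labelled library at day 0, while control libraries went the other way. The day difference was 3.55 (SE 0.139) in control and −0.73 (SE 0.126) under the label. The label difference was 1.86 (SE 0.130) at day 0 and −2.42 (SE 0.132) at day 7.

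Cp encodes ceruloplasmin, a copper-carrying oxidase that loads iron onto transferrin, and had a pattern like that of C3 with smaller steps. The annotated transcripts of Cp span chr3:19957054-20009750 (plus strand), and the counted one chr3:19957054-19992998. Cp had 81.8, 81.7 and 83.4 CPM at control day 0, 446.5, 419.1 and 474.3 CPM at control day 7, 174.9, 175.6 and 178.6 CPM at labelled day 0, and 201.1, 198.6 and 189.8 CPM at labelled day 7. All 4 groups were apart. The day difference was 2.44 (SE 0.0898) in control and 0.16 (SE 0.0853) under the label, which did not pass the test. The label difference was 1.10 (SE 0.0864) at day 0 and −1.18 (SE 0.0863) at day 7. Hps3 overlaps the longer span on the opposite strand, and whether it overlaps the counted transcript was not checked.

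**Figure D2:**
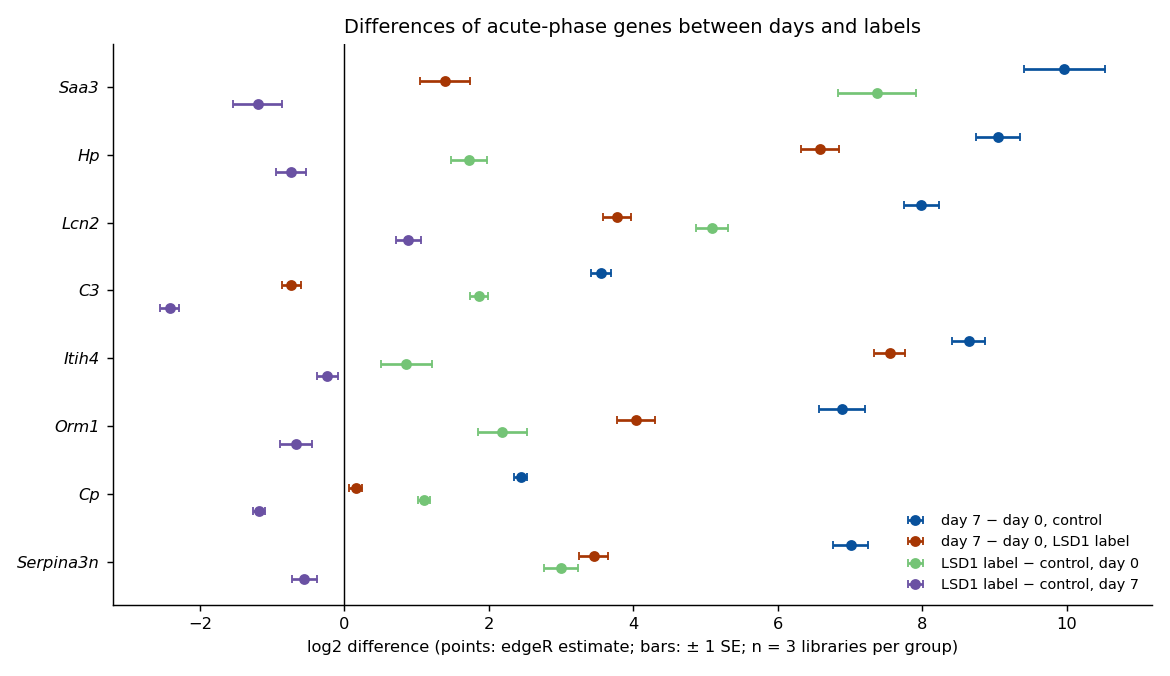
Log2 differences of the 8 acute-phase genes with enough counts in all comparisons, as edgeR estimates with bars of 1 SE (n = 3 libraries per group). Label differences lie above 0 at day 0 and, for all but Lcn2, below 0 at day 7, and every day difference is larger in control than under the label.

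The members counted together gave the following picture, with Saa1 and Saa2 left out for low counts. Between the days in control, 8 of 8 were higher, where 23.7% of the 13356 genes tested were called higher, and the members' median log2 difference was 7.50 against −0.01 over all genes. Under the label 6 were higher, C3 was lower and Cp did not pass, with a median of 3.61 against −0.07. In that comparison 32.6% of genes were called higher and 37.2% lower. At day 0, 7 members were higher in labelled libraries and Itih4 did not pass (12.8% of genes higher; median 2.03 against 0.00). At day 7, Lcn2 was higher (30.2% of genes), 6 members were lower (33.4% of genes) and Itih4 did not pass, with a median of −0.70 against −0.05. Of these 6, Orm1 lost its call without any 1 of 4 of the 6 day 7 libraries, labelled replicates 2 and 3 and control replicates 1 and 3 (adjusted p = 0.0547 to 0.0663, edgeR). Serpina3n lost its call without labelled day 7 replicate 1 (adjusted p = 0.0681, edgeR). The difference between the 2 day effects was below 0 for 8 of 8 members (28.1% of genes were called lower), with a median of −3.21 against −0.06. It ranged from −1.09 (SE 0.378) for Itih4 to −8.57 (SE 0.650) for Saa3. These comparisons share libraries, and nothing is read from the counts, since the members were picked with them known. Fat cell marker sums were highest in the labelled day 7 libraries, in which most members were below control, and fibroblast marker sums were lowest there. Of the fat cell markers, Retn went the other way, at 67.5 CPM in control and 24.7 CPM under the label at day 7. Lep was near the floor, and the other fat cell markers had higher means under the label than in control at day 7. The part of these markers' cell states in the differences was not tested. Without labelled day 0 replicate 1, 7 members were still higher at day 0 in labelled libraries, and of the differences between day effects that of Itih4 no longer passed. In that fit 3058 of 13510 genes were called higher and 3507 lower at day 0, against 1710 and 1739 of 13356 with all libraries.

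Per transcript length, the make-up of the acute-phase RNA differed between the groups. The summed level was 150.2 ± 9.05 CPM per kb (SD, n = 3) at control day 0, 3948 ± 205 at control day 7, 706.6 ± 125 at labelled day 0 and 2608 ± 243 at labelled day 7. At control day 7 the level per kb was 1439 ± 87.4 for C3, 866.5 ± 66.5 for Hp, 754.7 ± 81.5 for Lcn2 and 610.8 ± 179 for Saa3. Hp overlapped Lcn2, and Lcn2 overlapped Saa3, over the libraries. Below them came Cp at 114.8, Orm1 at 77.8, Serpina3n at 55.2 and Itih4 at 27.4 CPM per kb, and Saa2 and Saa1 stood at 1.04 and 0.730. At labelled day 7 the order began with Lcn2 at 1394 ± 102 CPM per kb, 53.4% of the members' sum, then Hp at 518.7 ± 84.0. C3 at 268.9 ± 33.5 and Saa3 at 266.0 (218.4 to 318.0) overlapped each other. C3 thus made up 36.5% of the sum per length in control and 10.3% in labelled libraries at day 7. At day 0 the members' RNA was C3 for 81.7% in control, with Cp at 14.1%. At labelled day 0 C3 took 63.2%, Lcn2 14.4% and Saa3 14.3%, while Hp took 0.762%.

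**Figure D3:**
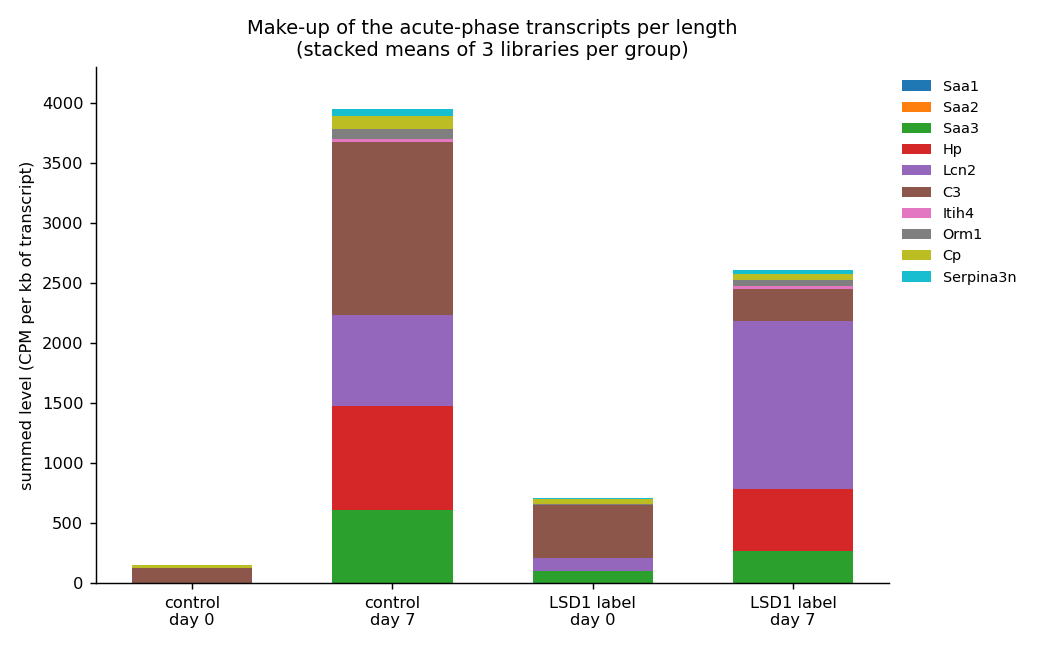
Summed level of the acute-phase genes by group, in CPM per kb of transcript, as stacked means of 3 libraries per group. C3 makes up most of the sum in both day 0 groups, and Lcn2 makes up most of it at labelled day 7.

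The patterns fell into pairs when the members were compared over the 12 libraries. The measure was the root mean square difference of log2 CPM, centred for each gene, so that a small value means a like pattern. A prior count was added before the log, which shrinks differences of genes with few counts. Values for Itih4, Saa3 and Orm1, low at control day 0, thus depend in part on level. Among 28 pairs of the 8 members the closest were Orm1 with Serpina3n (0.407), Hp with Itih4 (0.520) and C3 with Cp (0.533). Next came Lcn2 with Serpina3n (1.03) and Saa3 with Lcn2 (1.11). The most unlike pair was Hp with Cp (3.30). Over 9525 genes with a mean of 10 CPM or more, the closest gene of all was again a member for Saa3, Hp, Itih4, Orm1 and Serpina3n. For C3 it was the serpin Serpina3h (0.346), followed by the interferon-inducible gene Ifi204 (0.462). The closest gene to Lcn2 was Prxl2a (0.993), followed by Serpina3n. For Cp it was a transcript that the gene tables did not name (0.0754), followed by Foxred2 (0.155). The unnamed transcript had means of 75.44 and 405.3 CPM in control and 150.8 and 162.8 CPM in labelled libraries at day 0 and day 7, near those of Cp. Whether it belongs to Cp itself and shares its reads was not checked, so Foxred2 was the closest named gene. Retn, the adipokine resistin, was second for Hp (1.05), Map7d2 second for Itih4 (0.803) and Mcam second for Orm1 (0.826) and Serpina3n (0.844).

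The promoters of C3, Lcn2 and Serpina3n are shown because LSD1 peaks lay at the first 2 of these and the third holds matches to several acute-phase motifs. Motifs were searched on both strands as TTNNGCAA for C/EBP, GGGA and CC with any 4 bases between them for NF-kB, TTCNNNGAA for STAT, GNACANNNTGTNC for the glucocorticoid receptor and AGGTCA repeated after any 1 base for PPAR, and capitals mark matches. C3 covers chr17:57228137-57228386 (minus strand), Lcn2 chr2:32387740-32387989 (minus strand) and Serpina3n chr12:104406458-104406707 (plus strand), from RefSeq on GRCm38.p6.
C3: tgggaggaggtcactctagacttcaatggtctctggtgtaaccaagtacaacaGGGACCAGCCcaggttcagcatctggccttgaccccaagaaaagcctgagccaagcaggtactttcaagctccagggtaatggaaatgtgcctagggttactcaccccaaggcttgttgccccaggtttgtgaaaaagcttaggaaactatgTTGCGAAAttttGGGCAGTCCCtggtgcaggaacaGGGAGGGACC
Lcn2: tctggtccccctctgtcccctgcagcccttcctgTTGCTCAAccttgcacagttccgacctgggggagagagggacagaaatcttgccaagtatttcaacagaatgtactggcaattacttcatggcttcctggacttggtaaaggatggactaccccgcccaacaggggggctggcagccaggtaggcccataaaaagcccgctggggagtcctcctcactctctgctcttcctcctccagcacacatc
Serpina3n: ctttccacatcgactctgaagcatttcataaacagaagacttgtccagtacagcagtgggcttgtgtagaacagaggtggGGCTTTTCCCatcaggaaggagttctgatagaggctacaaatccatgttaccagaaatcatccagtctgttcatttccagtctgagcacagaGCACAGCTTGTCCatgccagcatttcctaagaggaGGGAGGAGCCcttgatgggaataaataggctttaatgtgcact
C3 has 1 C/EBP match at bases −45 to −38 and 3 NF-kB matches, at −197 to −188, −33 to −24 and −10 to −1. Lcn2 has 1 C/EBP match at −216 to −209. Serpina3n has 1 glucocorticoid receptor match at −78 to −66 and 2 NF-kB matches, at −170 to −161 and −43 to −34. Of the 8 members with a window in the table, 5 held a C/EBP match (C3, Lcn2, Saa1, Saa2 and Saa3), 2 an NF-kB match, 1 a STAT match (Itih4) and 1 a glucocorticoid receptor match. The shares over all 32851 windows were 9.56%, 17.6%, 7.02% and 0.387%. No member window held a PPAR match, which 0.0335% of all windows held. The C/EBP and other matches of 1 gene do not overlap each other.

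LSD1 peaks at the members' start sites differed between the lists. Within 1 kb of a start site, the control day 0 list had a peak at 0 of 10 members, where 22.7% of 13069 tested genes had one, and the control day 7 list had 1, at Lcn2 (59.2% of genes). The labelled day 0 list had peaks at C3 and Cp (70.7% of genes), and the labelled day 7 list at Hp, Lcn2, C3 and Orm1 (80.2% of genes). The members' counts were below the share over all genes in each LSD1 list. The lists held 3024, 8303, 13997 and 27221 peaks, from 1 sample each without stated depth, so a peak in 1 list and not in another shows no difference in binding. The Nrf1 lists had 0 peaks within 1 kb of a member's start site, where 11.9% and 13% of genes had one, and 0 within 5 kb, where 13.2% and 13.8% of genes did.

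The peak over the Lcn2 start site covered chr2:32386237-32387992 in control at day 7, with a score of 85.56 in the authors' list, and chr2:32387318-32388590 with a score of 332.86 in the labelled day 7 list. At C3 the peaks were chr17:57225981-57228748 (score 166.09) in the labelled day 0 list and chr17:57227431-57228946 (score 439.2) in the labelled day 7 list. Each of these 4 regions covers the whole promoter window of its gene printed above. C3 had no peak there in either control list. Its RNA level in control was below that of labelled libraries at day 0 and above it at day 7, and a link to the peaks was not tested. The Cp peak at labelled day 0 was chr3:19956618-19959175 (score 178.5), and the start sites of Hp and Orm1 were covered at labelled day 7 by chr8:109578760-109579659 (score 233.94) and chr4:63344037-63344922 (score 344.68). Cp also had a peak upstream, between 2.08 and 2.72 kb from the start site at the nearest edge, in the control day 0 list and both labelled lists. Saa3 had a peak 4.33 to 4.65 kb downstream of its start, beyond the gene's end and nearest to the start of Saal1, in the control day 7 list and both labelled lists.

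**Figure D4:**
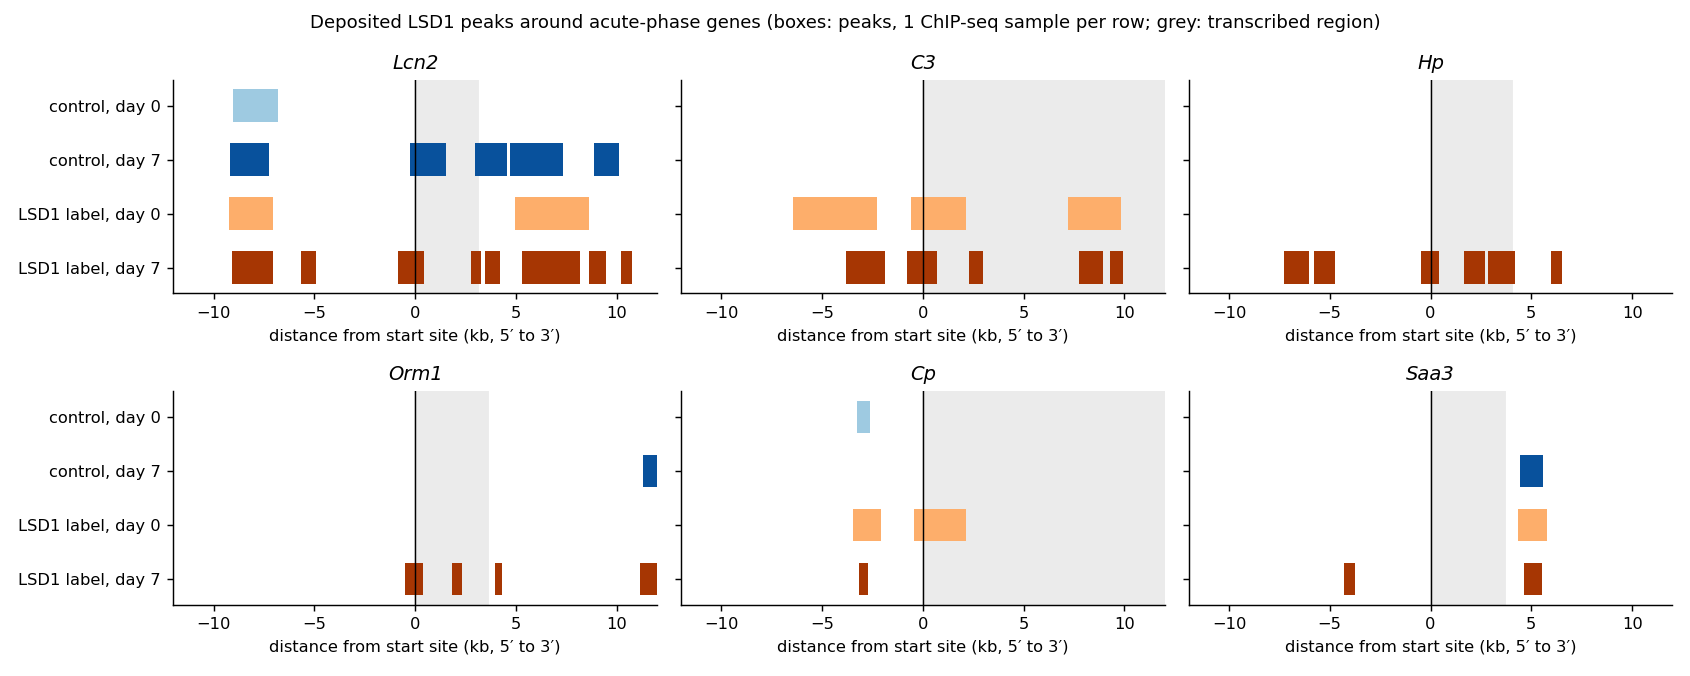
LSD1 peaks deposited for the 4 groups around 6 acute-phase genes, by distance from the start site in kb along the gene. Boxes are peaks from 1 ChIP-seq sample per row and grey marks the transcribed region; the labelled day 7 list has a peak over the start site of Lcn2, C3, Hp and Orm1.

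Other acute-phase genes were taken from a list of 29, of which 18 passed the filter. Among the 18 are relatives of members: Orm2 and Orm3 of Orm1, and Serpina3c, Serpina3f, Serpina3g, Serpina3h, Serpina3i, Serpina3k and Serpina3m of Serpina3n. The shares below are therefore not from 18 unrelated genes, and how far reads are split between relatives was not measured. In control 16 of the 18 rose between the days (88.9%, against 23.7% of all genes tested) and 1 fell (24.6% of all genes), with a median log2 difference of 3.23 against −0.01 over all genes. Fga, Serpina3k and Serpina3m, all among these 16, had means under the filter's cut-off of 0.432 CPM in both day 0 groups. They needed day 7 libraries to pass the filter, so their rise under either label supports nothing. Orm3, a second orosomucoid, rose by 5.00 (SE 0.201), Serpina3f by 4.81 (SE 0.229) and Serpina3m by 7.72 (SE 0.399; 8.63 without control day 0 replicate 3), while the pentraxin Ptx3 fell with −1.56 (SE 0.181). Under the label 10 rose (55.6%, against 32.6% of all genes) and 6 fell (33.3%, against 37.2%), with a median of 1.17 against −0.07. Serpina3g, which neighbours Serpina3n, went from 23.3 ± 2.52 to 183.9 ± 13.6 CPM (SD, n = 3) in control and from 155.6 ± 39.6 to 3.33 ± 1.11 CPM in labelled libraries, and its day effects differed by −8.53 (SE 0.327, adjusted p = 3.7e-09, edgeR). At day 0, 9 were higher in labelled libraries and 1 lower, where 12.8% of all genes were higher and 13% lower. Without labelled day 0 replicate 1 they were 9 and 2, where 3058 and 3507 of 13510 genes were called. At day 7, 5 were higher and 12 lower (27.8% and 66.7%, against 30.2% and 33.4% of all genes). The 5 higher at day 7 included the metallothioneins Mt1 and Mt2, which bind zinc and copper. Mt2 reached 3908 ± 292 CPM there against 614.7 ± 72.8 CPM in control (log2 difference 2.67, SE 0.155, adjusted p = 1.79e-08, edgeR). Of the listed genes known best from liver, some were near 0: Crp had 2 counts, Fgg 1, and Apcs and Fgb 0 in the 12 libraries together. Others were measured: at day 7, Agt, the precursor of angiotensin, stood at 2431 ± 171 CPM in control and 4018 ± 535 CPM under the label (SD, n = 3), and Lbp, which binds lipopolysaccharide, at 46.6 ± 6.14 and 19.0 ± 1.73 CPM. The fibrinogen chain gene Fga had 0 counts at day 0 and at day 7 a control level of 0.180 ± 0.170 CPM and a labelled level of 2.37 ± 0.652 CPM. Of 9 negative acute-phase proteins, whose blood level falls in inflammation, 3 were tested. Igf1, Igfals and Trf were lower in labelled libraries at both days, with Igf1 at −1.76 (SE 0.260) and −1.97 (SE 0.290). Between the days 1 of the 3, Igf1, fell under each label and the others did not pass.

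Of 25 complement genes other than C3, 13 were tested, and in control 3 rose, 2 fell and 8 did not pass between the days. These shares, 23.1% and 15.4%, were close to or below those over all genes (23.7% and 24.6%). Cfd, the fat cell protease adipsin that acts with C3 in the alternative pathway, rose by 8.70 (SE 0.608), with all its control day 0 counts in replicate 3 and 0 in the others. Without that replicate the fitted value was 14.12, which rests on 0 counts at day 0 and is no bound. With day 0 means of 0.225 CPM in control and 0.135 CPM under the label, Cfd needed day 7 libraries to pass the filter. Its rise under either label therefore supports nothing. The C3a receptor C3ar1 fell with −3.93 (SE 0.490; −4.82 without control day 7 replicate 2). Under the label 2 rose and 9 fell (15.4% and 69.2%, against 32.6% and 37.2% of all genes): the proteases of the classical pathway C1s1 and C1ra stood at −4.90 (SE 0.146) and −4.47 (SE 0.129). At day 7 the control level of C1s1 was 187.2 ± 22.8 CPM and the labelled level 9.21 ± 0.806 CPM (SD, n = 3), and those of Cfd were 95.96 ± 13.6 and 292.5 ± 43.9 CPM. There 8 complement genes were lower and 1, Cfd, was higher, a call that DESeq2 did not make (adjusted p = 0.342). Over all genes 33.4% were lower and 30.2% higher in that comparison. At day 0, 4 were higher and 3 lower in labelled libraries, where 12.8% and 13% of all genes were. Among them were the C1 inhibitor Serping1 at 4.50 (SE 0.521) and the chaperone clusterin, Clu, at −1.73 (SE 0.122). Without labelled day 0 replicate 1 the counts were 6 and 3 of 14 tested, where 3058 and 3507 of 13510 genes were called.

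Of the cytokines that induce acute-phase genes, Il1b had 2 counts, Tnf 9 and Osm 2 in all 12 libraries together, while others were measured. Clcf1, a cytokine of the interleukin 6 family, stood at 12.2 ± 3.76 CPM in control at day 0 and 8.62 ± 1.05 CPM at day 7, and at 23.0 ± 2.55 and 2.90 ± 0.177 CPM in labelled libraries (SD, n = 3). Il6, Lif and Il11 were, like Clcf1, called higher in labelled libraries at day 0, with means of 1.52, 3.71 and 2.06 CPM against 0.344, 0.993 and 0.915 CPM in control. Of 18 cytokine and receptor genes tested out of 22, 6 rose and 1 fell in control between the days (33.3% and 5.56%, against 23.7% and 24.6% of all genes). Under the label 3 rose and 14 fell (16.7% and 77.8%, against 32.6% and 37.2%). Osmr, the oncostatin M receptor, rose by 1.02 (SE 0.233) in control, and the toll-like receptor Tlr2 stood at −4.19 (SE 0.279) and the receptor Lifr at −2.15 (SE 0.159) between the days under the label. At day 0, 9 were higher and 2 lower in labelled libraries, with Osmr at 1.84 (SE 0.237), where 12.8% of all genes were higher and 13% lower. Without labelled day 0 replicate 1 the counts were 12 and 2 of 19 tested, where 3058 and 3507 of 13510 genes were called. Il1rn, the interleukin 1 receptor antagonist and itself an acute-phase protein, went from 0.200 ± 0.122 to 77.35 ± 5.82 CPM in control and stood at 11.7 ± 13.0 and 0.332 ± 0.124 CPM in labelled libraries (SD, n = 3). Its day 0 label difference was 5.83 (SE 0.848), or 4.36 without labelled day 0 replicate 1. At day 7, 2 were higher and 13 lower (11.1% and 72.2%, against 30.2% and 33.4% of all genes), with Il17rc at 2.21 (SE 0.159) and Il1r1 at −1.60 (SE 0.115).

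Among transcription factors and feedback inhibitors, 21 of 22 were tested. Their shares between the days were 38.1% higher and 23.8% lower in control (23.7% and 24.6% of all genes) and 28.6% and 52.4% under the label (32.6% and 37.2%). Between the labels they were 47.6% and 9.52% at day 0 (12.8% and 13%) and 28.6% and 42.9% at day 7 (30.2% and 33.4%). In control 8 rose, such as Cebpa by 2.08 (SE 0.165), Cebpd by 2.10 (SE 0.178) and the NF-kB cofactor Nfkbiz by 3.02 (SE 0.226), and 5 fell, such as Nfkb2 with −1.18 (SE 0.0933). Under the label 6 rose and 11 fell, with Cebpa at 4.88 (SE 0.187), Nfkbie at −6.31 (SE 0.300) and Relb at −2.17 (SE 0.122). At day 0, 10 were higher and 2 lower in labelled libraries: the NF-kB family genes Relb and Bcl3 stood at 1.07 (SE 0.117) and 1.27 (SE 0.127), and Cebpa at −1.62 (SE 0.170). At day 7, 6 were higher and 9 lower, with Cebpa at 1.18 (SE 0.158), the inhibitor of cytokine signaling Socs3 at −2.43 (SE 0.176) and Nfkbie at −3.50 (SE 0.304). At both days Cebpa lay on the other side of control from the members, with the exceptions of Lcn2, higher than control at day 7 as Cebpa was, and of Itih4, which did not pass. Cebpb had labelled means of 129.6 CPM at day 0 and 375.6 CPM at day 7, against 42.04 and 134.8 CPM in control. Cebpd had labelled means of 91.85 ± 26.93 and 229.4 ± 31.87 CPM, against 63.97 ± 3.695 and 273.9 ± 11.95 CPM in control (SD, n = 3). The part of the C/EBP genes in the members' levels was not tested.

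Receptors and partner proteins of the members had 16 of 20 tested. In control 8 rose and 3 fell, under the label 6 rose and 6 fell, at day 0 labelled libraries had 6 higher and 3 lower, and at day 7 they had 3 higher and 7 lower. Over all genes the shares higher and lower were 23.7% and 24.6%, 32.6% and 37.2%, 12.8% and 13%, and 30.2% and 33.4% in the same order. Without labelled day 0 replicate 1 the day 0 counts were 6 and 5, where 3058 and 3507 of 13510 genes were called. Hephl1, among the 8 that rose in control, passed the filter on low counts through control day 7, so its rise supports nothing. Steap4, a metal reductase of fat cells, went from 0.449 ± 0.116 to 132.4 ± 9.24 CPM in control and from 6.18 ± 4.15 to 12.5 ± 1.31 CPM in labelled libraries (SD, n = 3), so that its day effects differed by −7.16 (SE 0.551, adjusted p = 5.15e-07, edgeR; −6.46 without labelled day 0 replicate 1). Mmp9, the gelatinase that Lcn2 protein binds, went from 86.6 ± 7.74 to 18.9 ± 3.49 CPM in control and from 51.8 ± 4.45 to 0.0689 ± 0.0597 CPM in labelled libraries (SD, n = 3). Slc22a17, a receptor of Lcn2, was higher in labelled libraries at day 0 by 4.37 (SE 0.488), at 4.77 ± 0.838 CPM against 0.224 ± 0.139 CPM in control. Lrp1, which takes up many ligands, was lower under the label at day 7 with −2.11 (SE 0.157).

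**Figure D5:**
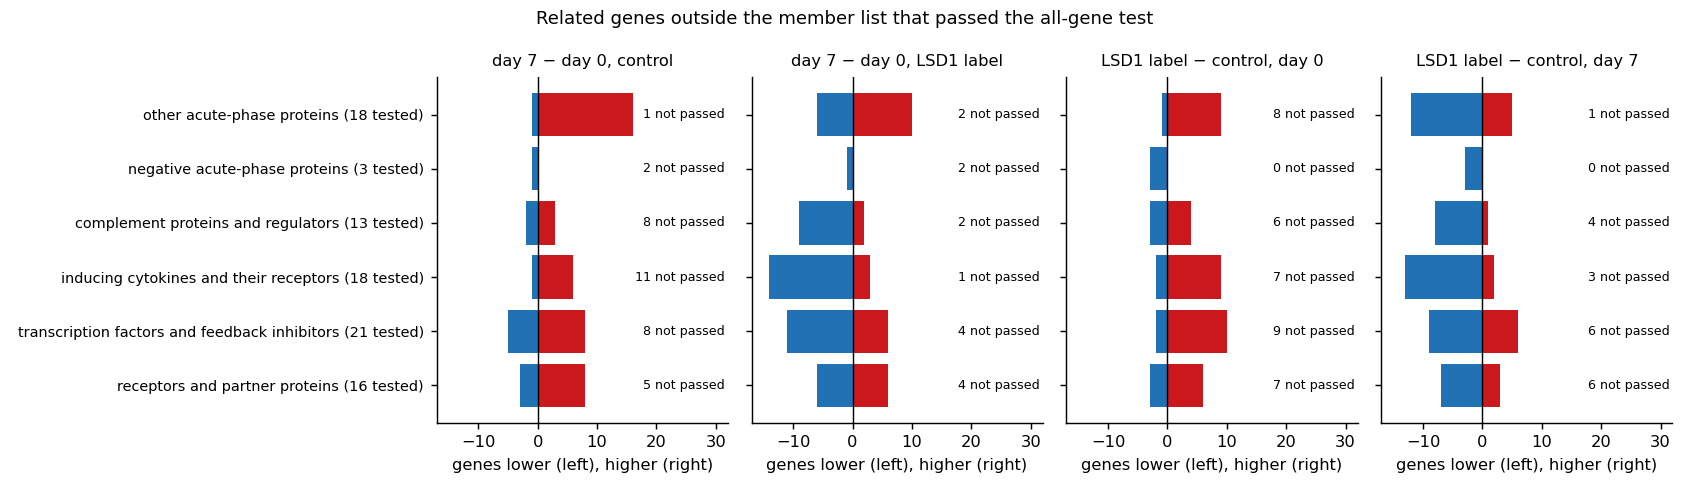
Number of genes in 6 lists of related genes that passed the edgeR test over all genes, higher (right, red) or lower (left, blue), for each comparison, with the number not passed at the right. For 18 other acute-phase genes, 16 are higher between the days in control and 12 are lower under the label at day 7.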

How the data were processed

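Each of the 12 RNA-seq files holds read counts per RefSeq transcript that the authors deposited without normalization. The submitters' processing notes list TopHat2 version 2, DESeq 1.8.3, edgeR and HOMER with no role, and mm10 as the build, and strand use is not given in the sources used here. The peak lists hold a peak score that the authors deposited, from Bowtie2 and MACS 1.41 per the same notes. Of 30521 accessions 29144 were named from RefSeq and 177 from GENCODE; the 1200 unnamed ones held 0.896% of counts. The transcript with the most counts stood for each gene, and each unnamed accession was kept as a feature of its own. edgeR 4.0.16 (R 4.3.3) fitted 4 group means to all libraries after filterByExpr and TMM scaling (robust quasi-likelihood, two-sided, Benjamini-Hochberg over 13356 genes, threshold 0.05), and was tested on simulated data. CPM use TMM-scaled library sizes. Totals of 19953122 to 26266765 counts per library with 1 transcript per gene limit low genes, and intervals and floors cover counting error only. The titles call replicates biological without naming separate cultures, so p-values cover the spread between these samples. The members, the lists and the rule for named genes (at a mean of 1 CPM or more, the 3 smallest adjusted p of each list in either direction) were chosen with earlier results of these data known. Of the listed genes outside that rule, some are given as counts near 0. Lbp, Fga, Il6, Lif, Il11 and Cebpb, also outside it, are given with levels or calls that were not run through the alternatives. Alternatives were DESeq2 1.42.0, other scalings, no filter, summed transcripts, a replicate block, each library left out, and other peak windows or scores. Same-numbered replicates did not pair: 1 of 18 correlations of their deviations was over 0.1. Some items are not reported here.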

Additional observations from a re-analysis of the deposited data

Results flagged for a closer look

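The effect of the day differed between the labels for Kdm1a, by a test of the difference itself. For the 8 acute-phase genes with enough counts the same values are a description and support nothing, since the genes were chosen with this pattern known, and Itih4 passed the filter on low counts only through the day 7 groups. The difference of the log2 day effects (labelled minus control) was −8.57 for Saa3, −4.29 for C3, −4.21 for Lcn2, −3.56 for Serpina3n, −2.85 for Orm1, −2.47 for Hp, −2.28 for Cp and −1.09 for Itih4. For Kdm1a it was −0.573 (SE 0.136, adjusted p = 0.00345, edgeR). C3 was the gene whose day effect had opposite signs, 3.55 in control and −0.73 under the label. The difference for Itih4 rested on 16 and 31 counts at day 0 and lost the call in several of the alternatives given with the processing.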

How the results depend on the processing

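No direction was reversed, and over all alternatives 706 values of the members kept their side of the threshold, 11 became weaker and 3 stronger; 2517, 38 and 1 values of the other named genes did so. Among members, the Itih4 difference of day effects was weaker with DESeq2 (−1.07, adjusted p = 0.0619) and without any labelled day 0 library or control day 0 replicate 1 or 3 (adjusted p = 0.0530 to 0.0923, edgeR). At day 7, Orm1 was weaker without 4 of the 6 libraries in turn (adjusted p = 0.0547 to 0.0663, edgeR) and Serpina3n without labelled day 7 replicate 1 (−0.46, adjusted p = 0.0681, edgeR), and Itih4 became lower with upper-quartile scaling (−0.37, adjusted p = 0.0346, edgeR) and without labelled day 7 replicate 3 (−0.37, adjusted p = 0.0404). Cp between the days under the label passed with DESeq2 (0.17, adjusted p = 0.0216). The cause was not tested. Upper-quartile scaling moved the median of all genes to −0.22 for the day under the label, −0.19 for the label at day 7 and −0.24 for the difference of day effects, and the share of calls that were higher to 39.9%, 39.4% and 36.0%, from 46.7%, 47.4% and 46.0%. At day 0 the number of all genes called for the label was 3449 and ran from 2172 without control day 0 replicate 3 to 6565 without labelled day 0 replicate 1. Peaks within 5 kb of a start site were at 1, 2, 4 and 7 members in the LSD1 lists of control day 0, control day 7, labelled day 0 and labelled day 7 (24.1%, 61.5%, 73.4% and 83.2% of 13069 genes), and with a score of 100 or more within 1 kb control day 7 had 0. With the replicate number as a block, 6031, 9051, 2964, 8161 and 6541 genes were called, against 6447, 9325, 3449, 8491 and 6933 without it (day in control, day under the label, label at day 0, label at day 7, difference of day effects), and no call on a member changed. Counts at day 0 limit Saa1, Saa2, Itih4, Saa3 and Orm1, and the depth of the ChIP-seq samples is unknown.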
